A study of Mus musculus with 11 samples.

Results

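The C1q macrophages of the mouse small-intestinal mesenchyme were the cells of 2 whole-mesenchyme single-cell libraries that held 6 or more unique molecular identifiers (UMIs) of C1qa, C1qb and C1qc together, no UMI of Cd3d, Cd3e, Cd3g or Cd79a, 500 or more detected genes and under 10% mitochondrial UMIs. The rule chose 247 of 12266 kept cells, of 16156 in the whole series: 130 of 6226 (2.09%, exact 95% interval 1.75 to 2.47) in replicate 1 and 117 of 6040 (1.94%, interval 1.60 to 2.32) in replicate 2. Intervals throughout cover counting error only. The C1q, Cd3 and Cd79a values chose these cells, so they are described here and not tested.

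The study profiled mesenchymal and endothelial fractions of the intestine by bulk RNA-seq and droplet single-cell RNA-seq, under a title that concerns the cells that set up the intestinal BMP gradient. Bulk libraries came as 2 replicates each of GFP-high and GFP-low cells of the PDGFRAH2BEGFP transgenic mouse, in which a nuclear GFP reports the Pdgfra gene, and of CD31+LYVE1- and CD31+LYVE1+ cells of C57BL/6 mice. A further single-cell library held cells sorted for the same GFP, and the labels give neither strain nor age for the whole-mesenchyme libraries, whose protocol text repeats that sort. The labels do not say whether replicates were separate animals, so each p-value reflects only how far these particular libraries differ from each other, possibly for technical reasons.

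C1q is the recognition part of the classical complement pathway, built from the chains A, B and C, and in tissues it is made mainly by macrophages. Intestinal macrophages take up dying cells and microbes, secrete interleukin 10, and depend on the receptor Csf1r; they are fed in part by blood monocytes that carry Ccr2, while long-lived cells have been described by Timd4 and Cd4. Dendritic cells, the other large population with abundant MHC class II, migrate with Ccr7 and prime T cells.

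The 3 C1q genes lie side by side on the minus strand of chromosome 4 of the mouse genome (GRCm38, GENCODE M21): C1qb at chr4:136880129-136886187, C1qc at chr4:136889804-136893065 and C1qa at chr4:136895917-136898803. Bases before the start of C1qb (chr4:136886201-136886450, minus strand) and C1qc (chr4:136893066-136893164, minus strand) are shown because these genes chose the cells. Those of Mrc1 (chr2:14229164-14229391, plus strand) and Mmp13 (chr9:7272264-7272513, plus strand) are shown because of their summed levels. Both genes were higher in the sums of members than in those of the comparison cells below. The sequences are from RefSeq (GRCm38.p6), end before the start of the gene in both annotations, and run 5′ to 3′; C1qa and Adgre1 were not matched. Capitals mark GAGGAA, the core of sites known for the myeloid factor PU.1, and TGCTGA, the core of sites known for the MAF family, each searched on both strands (TTCCTC and TCAGCA on the other), with no overlap between them here.
C1qb: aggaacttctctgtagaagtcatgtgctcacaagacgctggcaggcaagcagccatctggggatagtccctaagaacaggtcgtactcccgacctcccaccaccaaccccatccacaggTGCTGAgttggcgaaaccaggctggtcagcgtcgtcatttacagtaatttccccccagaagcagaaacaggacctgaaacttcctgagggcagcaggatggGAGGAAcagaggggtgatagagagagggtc
C1qc: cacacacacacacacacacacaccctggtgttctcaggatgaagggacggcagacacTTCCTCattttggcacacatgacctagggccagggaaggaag
Mrc1: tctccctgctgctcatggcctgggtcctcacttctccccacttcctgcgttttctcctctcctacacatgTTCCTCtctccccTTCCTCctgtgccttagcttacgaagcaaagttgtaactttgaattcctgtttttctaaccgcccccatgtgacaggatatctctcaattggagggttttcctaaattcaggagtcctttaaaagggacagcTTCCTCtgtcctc
Mmp13: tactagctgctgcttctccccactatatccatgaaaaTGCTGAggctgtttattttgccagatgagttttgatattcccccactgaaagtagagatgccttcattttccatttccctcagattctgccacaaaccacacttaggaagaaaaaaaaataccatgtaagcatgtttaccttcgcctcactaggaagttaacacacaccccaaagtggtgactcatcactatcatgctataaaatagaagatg

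C1qb held 1 GAGGAA and 1 TGCTGA in 250 bases, C1qc held 1 TTCCTC in 99 bases, Mrc1 held 3 TTCCTC in 228 bases and Mmp13 held 1 TGCTGA in 250 bases. Of 32851 RefSeq windows of the same place, 23.3% held the PU.1 core and 16.1% the MAF core in 250 bases, 21.2% held the PU.1 core in 228 bases and 9.91% in 99 bases. A match describes the letters of the window only.

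The members held a median of 22.5 C1q UMIs (6 to 359) in replicate 1 and 17 (6 to 200) in replicate 2. UMIs of all 3 genes were found in 120 of 130 and 94 of 117 cells, and C1qa gave 49.6% and 48% of the C1q UMIs. C1q was scarce elsewhere: 94.8% and 95.2% of the kept cells had no C1q UMI. Cells with 6 or more C1q UMIs but a Cd3 or Cd79a UMI numbered 19 and 17 and were left out. Cells just inside the threshold (6 or 7 UMIs, 10 and 12 cells) carried 293 and 457 Csf1r CPM (UMIs of the gene per 1000000 UMIs of the set), and cells just outside (4 or 5 UMIs, 12 and 17 cells) carried 259.9 and 157 CPM, while members with 20 or more C1q UMIs (73 and 47 cells) carried 1362 and 1339 CPM. Csf1r and Apoe were highest in that upper band in both libraries, and the dendritic cell receptor Flt3 was lowest there, at 5.16 and 0 CPM. All Flt3 UMIs of members in replicate 1, and most in replicate 2, came from members with Il22ra2 UMIs, which are described below. The cells of 21063 and 19330 UMIs in the band just inside the threshold in replicate 1 were among them. The bands were not compared without these members.

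**Figure D1:**
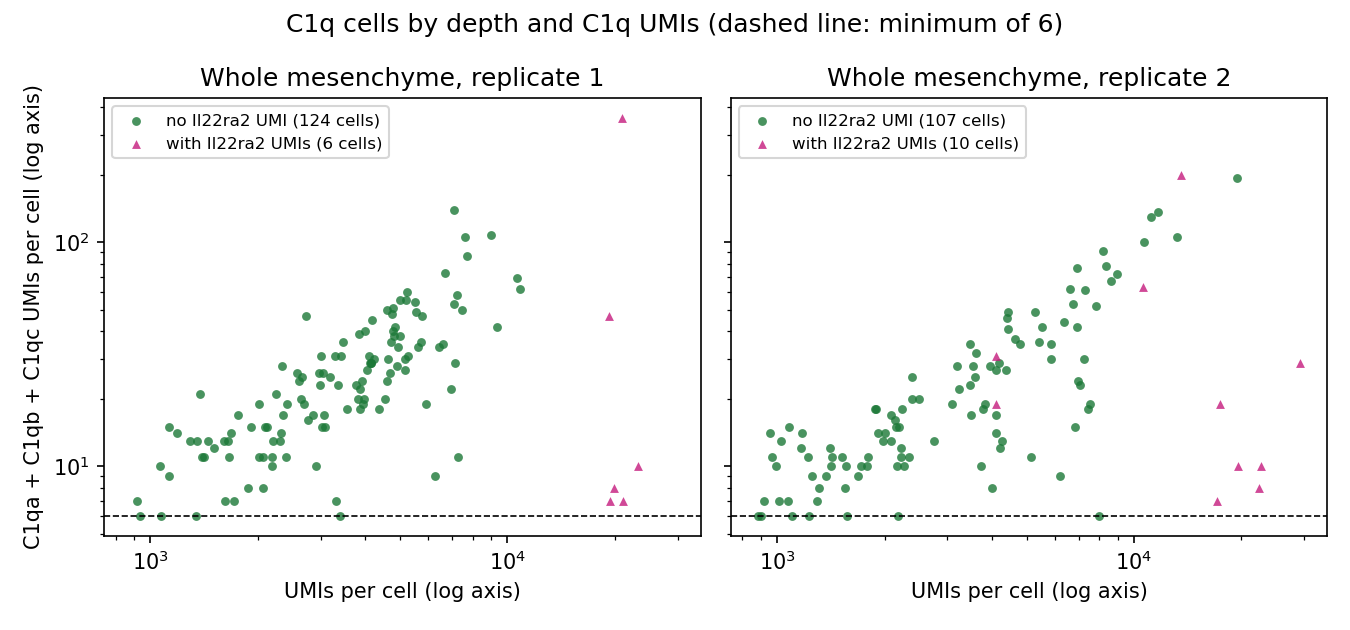
Each point is 1 member; the x axis gives its UMIs and the y axis its C1qa, C1qb and C1qc UMIs, both on log axes, with 1 panel per library and the minimum of 6 dashed. The 6 and 10 members with Il22ra2 UMIs (triangles) lie mostly at the right edge: their median depths are 20397 and 17205.5 UMIs, against 3436 and 3228 for the rest.

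The label was checked with Adgre1, the gene of the macrophage surface protein F4/80. Adgre1 had a UMI in 64.6% (84 of 130 cells, interval 55.8 to 72.8) and 55.6% (65 of 117 cells, interval 46.1 to 64.7). The same share was 32.5% and 30.5% in the comparison cells described below, which are deeper, and 0.458% and 0.621% in the other kept cells. With each cell thinned to 1500 UMIs it was 33.6% and 34.7% in members and 4.58% and 4.68% in comparison cells. An Adgre1 or a Csf1r UMI was found in 121 of 130 and 105 of 117 members, so most but not all cells carried a second macrophage gene. Csf1r alone had a UMI in 14.9% and 14.9% of comparison cells, where the share with either gene was not computed. All members with Il22ra2 UMIs, described below, had a Csf1r UMI, so this check does not set them apart. The cell barcodes of the libraries overlapped at 9 places, none of them in a member. A doublet caller marked 0 and 2 members.

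Before the results, 1 set of members has to be described, because it stands apart. All UMIs that the members held of Il22ra2, a soluble receptor that binds interleukin 22, came from 6 members of replicate 1 and 10 of replicate 2 (275 and 401 UMIs), and none of these 16 cells had an Mrc1 UMI. They were deep, so that 20.7% and 27.4% of all members' UMIs were theirs. Values are therefore given with these 16 cells, as the rule has it, and without them for the genes and lists named below as depending on them. The set was chosen after its values were seen.

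Members were compared with 865 cells (416 and 449) that held 20 or more UMIs of the MHC class II gene H2-Ab1 and at most 1 C1q UMI. These comparison cells had median depths of 14738.5 and 15101 UMIs, against 3789 and 3584 in members. UMIs were summed per library and set and tested with edgeR's quasi-likelihood test with the library as a block and Benjamini-Hochberg adjustment over 10322 genes; a gene was called under an adjusted p of 0.05. The genes of the rule and H2-Ab1 were left out. A gene nearly absent from comparison cells, or too scarce there to pass the filter on low counts, passed it only through the members. The counts of higher genes per list are therefore a description, and so are the p-values of such genes. Among the genes named below, Cx3cr1, Mrc1, Cd163, Fcgr4, Mertk, Gas6, C3ar1, C6, Cfb and Cd59a are of this kind. So are Ccl7, Ccl8, Ccl12, Ccl24, Pf4, Mmp13, Mmp9 and Gbp2b. In members 2129 genes (20.6% of those tested) were higher and 1928 (18.7%) were lower, with a median log2 difference over all genes of -0.02. Without the 16 cells 2275 (22.3%) were higher and 2255 (22.1%) lower. With 2 libraries there is 1 residual degree of freedom, and the test rests on the spread pooled over genes. CPM in this comparison are scaled by edgeR's TMM factors.

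Macrophage receptors were higher in members. Csf1r, the receptor that macrophages need to survive, stood at 1067 and 959 CPM in members of replicates 1 and 2 and at 19.8 and 18.1 CPM in comparison cells (log2 difference 5.74, SE 0.12, adjusted p = 7.92e-29). Cx3cr1, the fractalkine receptor of intestinal macrophages, stood at 229 and 172 against 0.315 and 0.7 CPM (log2 difference 8.49, adjusted p = 1.93e-22). Members were higher in both libraries for both genes, with no overlap. Of the 16 macrophage identity genes, 15 were higher and 0 lower, with a median log2 difference of 3.03; Tyrobp, an adaptor shared by myeloid cells, did not pass (1215 and 1177 against 1105 and 1048 CPM, adjusted p = 0.0973). Adgre1 was also higher (261 and 251 against 40.3 and 32.5 CPM; log2 difference 2.82, adjusted p = 2.18e-17).

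Lyz2, a lysozyme gene often used to mark macrophages, depended on the 16 cells. It stood at 6831 and 7776 CPM in all members and 2865 and 1966 CPM in comparison cells (log2 difference 1.62, adjusted p = 9.24e-18), and without the 16 cells it was called lower in members (log2 difference -0.30). The 16 cells carried 26054 and 24256 Lyz2 CPM, and the other members with and without Mrc1 carried 2197 and 2318 CPM (with Mrc1) and 1531 and 1699.8 CPM (without). Over all genes tested in both fits, 2015 were higher and 1807 lower either way, and 7 were higher with the 16 cells and lower without them: Il22ra2, Lyz1, Lyz2, S100a6, Bst1, Sec61b and Cwc25. These genes were named after their values were seen. Without the 16 cells the counts of higher and lower genes were 14 and 1 for macrophage identity, 15 and 0 for phagocytic receptors and bridging molecules, 8 and 0 for lipid handling, 15 and 1 for cytokines and growth factors, 15 and 6 for transcription factors and 10 and 2 for the interferon response, to be set against the counts below. Among the listed genes that then no longer passed were Il23a, Cfp, Cfb, Fabp5, Csf2ra and Usp18, and among those that newly passed as higher were C3, C4b and Cd59a.

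Mrc1, the mannose receptor, is on both the resident macrophage list and the list of phagocytic receptors. It stood at 323 and 254 CPM in members and 2.36 and 0.14 CPM in comparison cells (log2 difference 7.89, SE 0.28, adjusted p = 2.29e-22). Of the 14 resident macrophage genes 8 passed the filter on low counts; Pf4, F13a1, Cd163 and Mrc1 had 0 to 15 UMIs in the comparison cells of a library and passed it through the members, so no count is drawn from these 8. Among them were the haemoglobin scavenger receptor Cd163 (67 and 17.8 against 0.157 and 0.28 CPM), Cd4 (163 and 159 against 9.29 and 11.9 CPM) and the phosphatidylserine receptor Timd4 (62.1 and 53.4 against 21.9 and 14.6 CPM; log2 difference 1.67, adjusted p = 1.18e-06). The other 6 were nearly absent: members held 3 and 1 Lyve1 UMIs, 0 and 2 of Folr2, 1 and 1 of Cd209f, 0 and 1 of Cd209g, 0 and 5 of Fcna and none of Cbr2. With cells limited to under 5% mitochondrial UMIs, Timd4 no longer passed (log2 difference 0.26).

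Of 18 phagocytic receptors and bridging molecules, 17 passed the filter and 14 of these were higher, 0 lower (median 4.78). Fcgr4, an activating receptor for immunoglobulin G, stood at 268 and 259 against 1.89 and 0.42 CPM (log2 difference 7.84, adjusted p = 7.93e-23), and Mertk, which recognises dying cells through Gas6, at 91.5 and 72.9 against 0.63 and 0.84 CPM (log2 difference 6.72, adjusted p = 6.24e-16). Gas6 itself was higher too (76.8 and 58.3 against 2.68 and 3.22 CPM; log2 difference 4.49, adjusted p = 6.33e-13). Trem2 did not pass the filter, with 5 and 2 UMIs in members. Complement beyond C1q was higher in 8 of 14 tested genes and lower in 0 (median 1.08). The receptor of the C3a fragment, C3ar1, stood at 291 and 219 against 0.315 and 0.56 CPM (log2 difference 9.04, adjusted p = 8.3e-24). Itgax, a chain of complement receptor 4 that dendritic cells also carry, passed with all members (232 and 264 against 198 and 182 CPM; log2 difference 0.38, adjusted p = 0.0159) and not without the 16 cells (log2 difference 0.24). C6, a later component of complement that was not on the list, was among the genes with the largest rises, at 144 and 128 against 0 and 0.14 CPM (log2 difference 10.29, adjusted p = 3.77e-20).

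Lysosomal genes were higher in 21 of 22 tested and lower in 0, with a median log2 difference of 1.62. Lgmn, a lysosomal protease, stood at 3376 and 2892 against 122 and 119 CPM (log2 difference 4.69, SE 0.08, adjusted p = 2.57e-31), and Psap, which activates lysosomal lipid breakdown, at 6168 and 5057 against 1868 and 1902 CPM (log2 difference 1.57, adjusted p = 4.92e-21). The groups did not overlap for either gene, and the rise in Lgmn was the larger.

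Antigen presentation genes differed in both directions, and the split moved with the processing. Of 12 genes 4 were higher and 3 lower (median log2 difference -0.03), 5 and 5 without the 16 cells (-0.14) and 4 and 7 after thinning to 1500 UMIs per cell (-0.38). H2-Aa, which pairs with H2-Ab1, stood at 9471 and 8643 against 7081 and 6435 CPM and Cd74, the invariant chain, at 17460.5 and 18854 against 18389 and 17929 CPM; both follow H2-Ab1, which chose the comparison cells, so they are a description. Without the 16 cells the log2 difference was -0.26 for Cd74 and -0.39 for H2-Eb1, both called lower. With all members, the genes called higher besides H2-Aa were Ciita, Cd40 and the T cell costimulator Cd80 (199 and 149 against 113 and 94.3 CPM; log2 difference 0.74, adjusted p = 7.57e-05). The genes called lower were H2-DMb2, H2-Oa and H2-Ob, which encode or modulate the peptide loader of the pathway; H2-Oa stood at 24.5 and 11.3 against 166 and 154 CPM (log2 difference -3.17, adjusted p = 2.39e-13), and its log2 difference was -5.68 without the 16 cells.

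Lipid and iron genes were mostly higher: 9 of 11 tested lipid-handling genes (0 lower, median 2.17) and 8 of 11 iron and haem genes (1 lower, median 1.05). Apoe, the lipoprotein that macrophages release, stood at 5949 and 5682 against 87.2 and 48.3 CPM (log2 difference 6.47, SE 0.11, adjusted p = 2.57e-31), and Plin2, a coat protein of lipid droplets, at 626 and 670.4 against 77 and 79.6 CPM (log2 difference 3.05, adjusted p = 9.8e-22). Both groups of libraries were apart. The ferritin chains were abundant in both kinds of cell and differed less: Fth1 stood at 15330.4 and 15456 against 10122 and 9532 CPM (log2 difference 0.65, adjusted p = 3.3e-15) and Ftl1 at 5884 and 5832 against 4119 and 4122 CPM (log2 difference 0.51, adjusted p = 2.2e-10).

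Most secreted signals on the lists were higher in members. Of 18 chemokines tested 15 were higher and 3 lower, with a median log2 difference of 4.91. Ccl24, an attractant of eosinophils, gave 239 UMIs in members and 0 in the 865 comparison cells, at least 943-fold higher when the comparison cells are given a floor of 3 UMIs over both libraries. Ccl8 and Ccl12 were also at 0 in comparison cells, with 91 and 50 UMIs in members, at least 359-fold and at least 197-fold higher. Ccl7, an attractant of monocytes, stood at 513 and 172 against 0.157 and 0.42 CPM (log2 difference 9.96, adjusted p = 1.02e-24), and the platelet factor Pf4 at 235 and 219 against 0 and 0.56 CPM (log2 difference 9.42, adjusted p = 1.38e-22). The neutrophil attractant Cxcl2 stood at 4546 and 3873 against 584 and 589 CPM (log2 difference 2.84, adjusted p = 3.02e-27) and Ccl4 at 1379 and 1031 against 49.4 and 35.4 CPM (log2 difference 4.83, adjusted p = 2.54e-28). The 3 lower chemokines were Ccl5, Ccl17 and Ccl22, of which the last pair are made by dendritic cells; Ccl22 stood at 21.2 and 13 against 79.8 and 104 CPM (log2 difference -2.42, adjusted p = 3.67e-09).

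Of 19 cytokines and growth factors tested 16 were higher and 1, Il12b, was lower (median 2.14). Il10, the anti-inflammatory cytokine of intestinal macrophages, stood at 659.9 and 306 against 2.99 and 3.5 CPM (log2 difference 7.13, SE 0.20, adjusted p = 7.11e-25), and replicate 1 was above replicate 2. Il1b stood at 7983 and 7006 against 2739 and 2153 CPM (log2 difference 1.62, adjusted p = 3.02e-23), so an inflammatory cytokine was higher in the same sums. Wnt4, a ligand of the Wnt pathway, stood at 189 and 243 against 2.99 and 2.94 CPM (log2 difference 6.17, adjusted p = 5.11e-22), and Bmp2, a ligand of the BMP pathway that the title names, at 16.3 and 13 against 2.99 and 5.74 CPM (log2 difference 1.77, adjusted p = 0.00701; DESeq2 did not call it). Both ligands are on the list and were singled out after their values were seen. Bmp6 did not pass the filter, with 0 and 3 UMIs in members. Of the 19 receptors 16 were higher and 2 lower (median 1.91); Csf2rb, a chain of the receptor for GM-CSF, was lower at 546 and 643 against 1009 and 980.2 CPM (log2 difference -0.75, adjusted p = 8.15e-09).

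Outside the lists, matrix metalloproteinases and an interferon-inducible GTPase were among the 8 largest rises. Mmp13, a collagenase, stood at 1047 and 934 CPM in members and 1.26 and 0.7 CPM in comparison cells (log2 difference 9.95, SE 0.17, adjusted p = 5.34e-31). Mmp9, a gelatinase, stood at 575 and 492 against 0.157 and 0.56 CPM (log2 difference 10.36, adjusted p = 1.37e-27), and Gbp2b at 408 and 313 against 0.157 and 0.7 CPM (log2 difference 9.54, adjusted p = 1.64e-25). Comparison cells held almost no UMIs of these genes.

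Of 26 transcription factors of myeloid cells 14 were higher and 4 lower (median 0.61). The higher factors included Cebpb, which acts in myeloid cells, at 1965 and 1556 against 114 and 103 CPM (log2 difference 4.01, adjusted p = 5.09e-28), while Spi1, which encodes PU.1, did not pass (381 and 372 against 445 and 440.0 CPM, adjusted p = 0.0661) and was called lower without the 16 cells (log2 difference -0.32). The 4 lower factors were Irf4, Zbtb46, Mef2c and Ahr. Interferon-response genes were higher in 12 of 14 and lower in 2; Cxcl10 stood at 1088 and 703 against 43.1 and 44 CPM (log2 difference 4.33, adjusted p = 1.53e-24) and was higher, while Ifitm3, an antiviral membrane protein, was lower at 503 and 445 against 790.4 and 767 CPM (log2 difference -0.72, adjusted p = 4.22e-08).

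Immediate early and heat shock genes, which tissue dissociation is known to raise, were higher in 14 of 17 and lower in 1 (median 1.76). Junb stood at 6121 and 5426 against 2031 and 1821 CPM (log2 difference 1.58, adjusted p = 1.16e-22) and Zfp36, which destabilises cytokine mRNA, at 3020.3 and 3031 against 486 and 474 CPM (log2 difference 2.66, adjusted p = 3.15e-26). Most cytokine and chemokine genes named above moved in the same direction, while Ccl5, Ccl17, Ccl22 and Il12b were lower. The part of dissociation in these genes was not tested. The summed level of this list was 20453 and 20235 CPM in members, 6749.9 and 6613 CPM in comparison cells and 12462 and 12356 CPM in the other kept cells.

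Cell cycle genes were lower in 9 of 13 and higher in 0 (median -1.18). Mki67, a marker of dividing cells, stood at 60.4 and 93.9 against 133 and 106 CPM (log2 difference -0.62, adjusted p = 0.00748), and Stmn1 at 19.6 and 92.3 against 129 and 121 CPM (log2 difference -1.18, adjusted p = 0.00024). Stmn1 differed by -0.38 without replicate 1 and by -2.66 without replicate 2. DESeq2 called 1 of the 9 lower genes, Birc5, and neither Mki67 nor Stmn1 passed when comparison cells with a Cd3 or Cd79a UMI were left out.

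Dendritic cell genes were lower in 11 of 16 and higher in 1, with a median log2 difference of -1.65; without the 16 cells they were lower in 13 and higher in 0 (median -4.16). Ccr7, the receptor that leads dendritic cells to lymph nodes, stood at 234 and 194 against 461 and 383 CPM (log2 difference -0.98, adjusted p = 8.81e-09), and the log2 difference was -2.95 without the 16 cells. Cd209a, a lectin of dendritic cells, stood at 11.4 and 8.1 against 194 and 136 CPM (log2 difference -4.07, adjusted p = 3.3e-15). Of the genes of dendritic cell migration 6 of 11 were lower and 3 higher; Cd83 (2930.5 and 2213 against 877 and 792 CPM) and Marcks (919.7 and 780.5 against 232 and 207 CPM) were among the higher ones. Of 10 monocyte genes 7 passed the filter, 4 lower and 2 higher. Plac8 stood at 595 and 712 against 1659 and 1587 CPM (log2 difference -1.32, adjusted p = 1.3e-15; -3.10 without the 16 cells) and the integrin Itga4 at 178 and 162 against 379 and 364 CPM (log2 difference -1.13, adjusted p = 1.78e-09). Ccr2 was 1 of the 2 higher, at 78.4 and 43.7 against 15.1 and 16.4 CPM (log2 difference 1.93, adjusted p = 2.64e-07), and Ly6c2 was lower, at 3.27 and 1.62 against 27.5 and 39.9 CPM (log2 difference -3.77, adjusted p = 3.1e-07).

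The largest falls held genes of B and plasma cells as well as dendritic cell genes. Ly6d stood at 11.4 and 3.24 CPM in members and 102 and 243 CPM in comparison cells (log2 difference -4.53, adjusted p = 6.03e-14), Mzb1 at 11.4 and 21 against 274 and 391 CPM and the immunoglobulin chain Igkc at 3223 and 2487 against 30193 and 36283 CPM (log2 difference -3.55, adjusted p = 1.04e-28). Serpinb6b stood at 47.4 and 61.5 against 927 and 908 CPM (log2 difference -4.07, adjusted p = 2.17e-23; -5.27 without the 16 cells) and the integrin Itgb7 at 11.4 and 6.48 against 145 and 142 CPM (log2 difference -4.00, adjusted p = 2.47e-14). Of the comparison cells 47 and 46 held a Cd79a UMI and 94 and 98 a Cd3 UMI, which the rule forbids in members. When such cells were left out, Igkc was higher in members (log2 difference 0.86) and Mzb1 no longer passed (log2 difference -0.51). These 2 calls thus changed with the choice of comparison cells, and the cause of the falls was not tested.

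**Figure D2:**
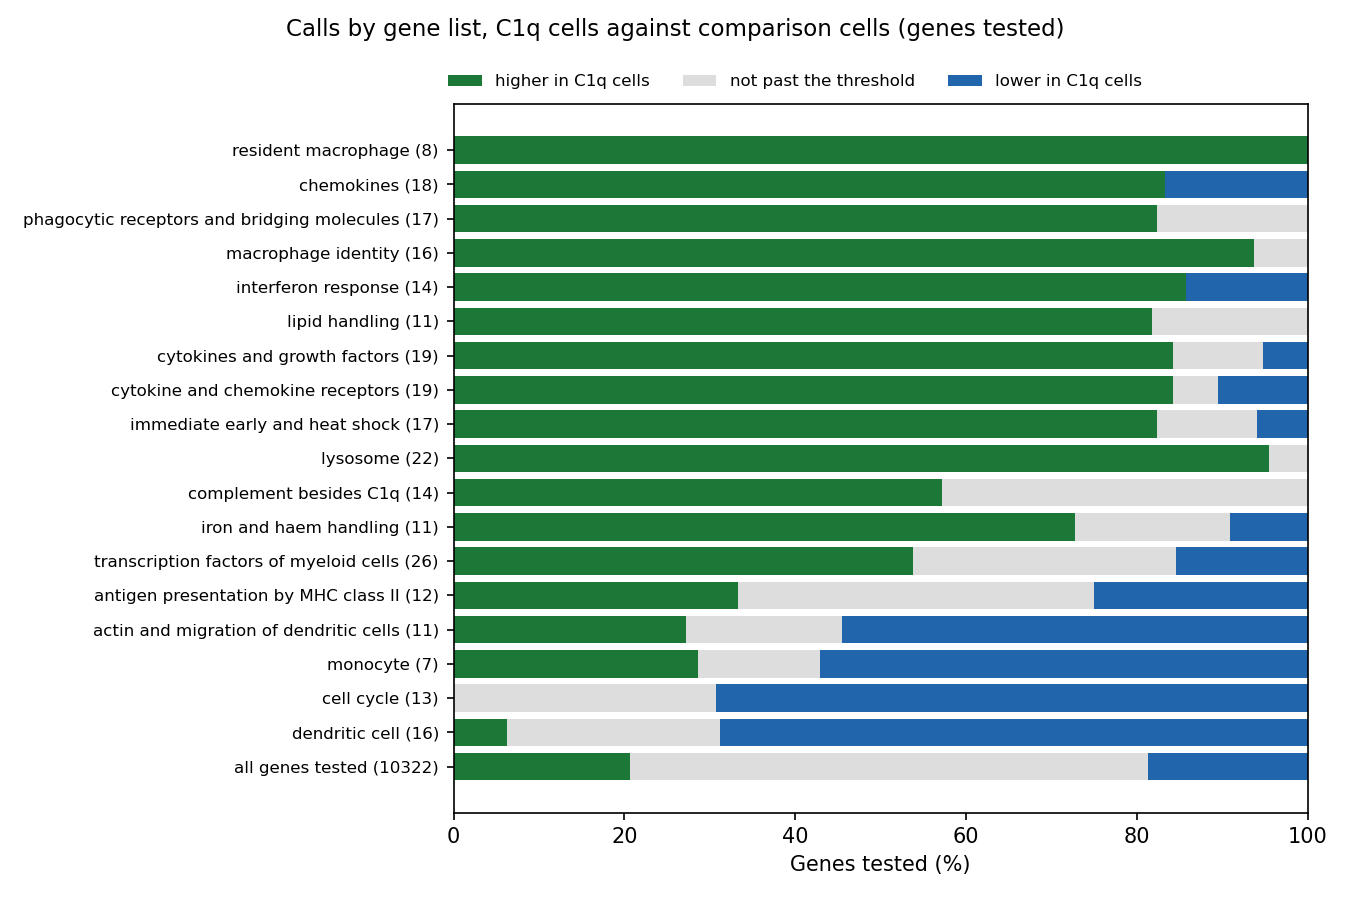
Bars give the share of the tested genes of each list (number in brackets) that were higher, not past the threshold or lower in members than in comparison cells (edgeR, adjusted p under 0.05). The lowest bar holds all 10322 genes tested, 20.6% higher and 18.7% lower. The dendritic cell and cell cycle bars hold the most lower calls among the lists. No result is drawn from the resident macrophage bar, since Pf4, F13a1, Cd163 and Mrc1 passed the filter on low counts through the members.

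Transcripts of other cell types were measured in the same sums. The plasma cell markers summed to 3536 and 2858 CPM in members, 17682 and 21552 CPM in comparison cells and 102562 and 104920 CPM in the other kept cells, with no marker at 0 in any of them. T cell markers summed to 73.7 and 58 CPM in members and 254 and 251 CPM in comparison cells. B cell markers summed to 21.8 and 27.3 CPM in members, with 4 of 6 at 0. Fibroblast markers summed to 191 and 1519 CPM in members, so replicate 2 stood above replicate 1. There, 6 of 117 members held 10 or more UMIs of the fibroblast gene Dcn and 93.3% of the 480 Dcn UMIs, and no member of replicate 1 held 10. Of the 7 fibroblast markers 3 were higher in members than in comparison cells, and 7 without the 16 cells. Their part in the other results was not tested.

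Genes that are used to divide intestinal macrophages had a UMI in only a part of the members. Whether members differ in them beyond the sampling of scarce UMIs was not tested. Mrc1 had a UMI in 63.1% (82 of 130 cells, interval 54.2 to 71.4) and 53% (62 of 117 cells, interval 43.5 to 62.3), Cx3cr1 in 44.6% (58 of 130 cells, interval 35.9 to 53.6) and 34.2% (40 of 117 cells, interval 25.7 to 43.5) and Cd4 in 43.8% (57 of 130 cells, interval 35.2 to 52.8) and 40.2% (47 of 117 cells, interval 31.2 to 49.6). Timd4 had a UMI in 16.9% (22 of 130 cells, interval 10.9 to 24.5) and 21.4% (25 of 117 cells, interval 14.3 to 29.9), Cd163 in 13.8% (18 of 130 cells, interval 8.42 to 21) and 5.98% (7 of 117 cells, interval 2.44 to 11.9) and Ccr2 in 9.23% (12 of 130 cells, interval 4.86 to 15.6) and 5.98% (7 of 117 cells, interval 2.44 to 11.9). The intervals of the libraries overlapped for each of these 6 genes. Thinned to 1500 UMIs per cell, which left 116 and 95 members and dropped 14 and 22, the shares were 33.6% and 37.9% for Mrc1, 23.3% and 18.9% for Cx3cr1, 20.7% and 27.4% for Cd4, 10.3% and 15.8% for Timd4, 10.3% and 6.32% for Cd163 and 5.17% and 4.21% for Ccr2. Each of these shares was smaller after thinning except that of Cd163 in replicate 2. The other kept cells (median depths 4973 and 4894 UMIs) are cells of other types that can express these genes themselves. Among them Mrc1 had a UMI in 1.46% and 1.42%, Timd4 in 0.194% and 0.201%, Cx3cr1 in 0.335% and 0.311%, Cd4 in 10.9% and 10.6% and Ccr2 in 9.4% and 9.65%. In the deeper comparison cells Timd4 had a UMI in 15.9% and 12.2% and Ccr2 in 9.38% and 10.0%. Thinned to 1500 UMIs, these cells had Timd4 in 3.13% and 2.00% and Ccr2 in 2.65% and 3.56%. Unthinned, they had Mrc1 in 1.44% and 0.223%, Cx3cr1 in 0.240% and 0.891% and Cd4 in 8.17% and 12.0%. Free RNA was read from barcodes of at most 100 UMIs. There Mrc1 stood at 11.7 and 9.44 CPM, against 332 and 268 CPM in members on the same scale. Cd4 stood at 30.2 and 29.5 against 168 and 167 CPM. Ccr2 stood at 49.99 and 42.1 against 80.4 and 46 CPM, so in replicate 2 the level in members was close to that of these barcodes.

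Lyve1 and Folr2, genes of perivascular macrophages in other tissues, were close to or at the detection limit. Lyve1 had a UMI in 2.31% (3 of 130 cells, interval 0.478 to 6.6) and 0.855% (1 of 117 cells, interval 0.0216 to 4.67); Folr2 had none in replicate 1, where a count of 0 in 130 cells allows a share of cells with a UMI of up to 2.31% by 3 counts and 2.8% by the exact interval. Neither bound limits the share of cells that express it at this depth. Folr2 had a UMI in 2 of 117 cells of replicate 2. Ly6c2, a monocyte gene, had a UMI in 2 and 1 members. Lyve1 had a UMI in 2.18% and 2.08% of the other kept cells, and lymphatic endothelium is known to make it. In barcodes of at most 100 UMIs Lyve1 stood at 26.9 and 32.6 CPM, above the 5.03 and 1.71 CPM in members.

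**Figure D3:**
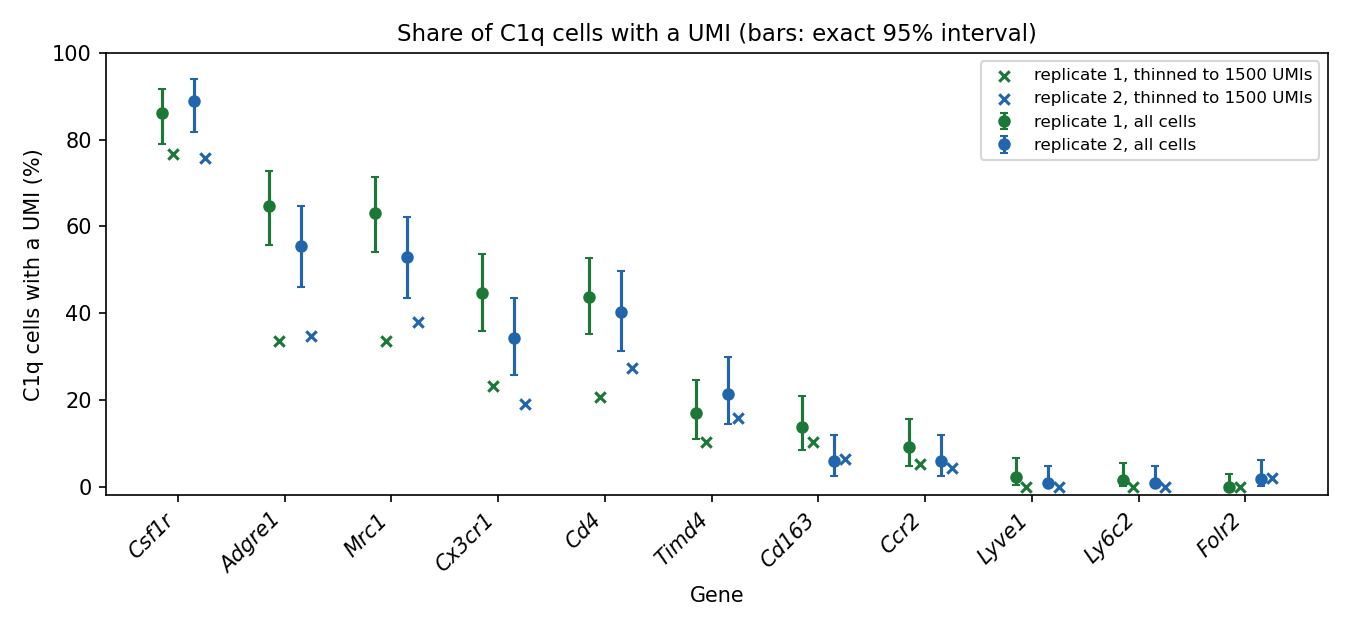
Points give the percentage of members of each library with a UMI of the gene on the x axis, with the exact 95% interval; crosses give it after thinning to 1500 UMIs per cell. Csf1r is found in the largest share (86.2% and 88.9%), and Lyve1, Ly6c2 and Folr2 lie at or below 2.31%.

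The 16 members with Il22ra2 differed from the rest in many genes. Levels follow without a test, since the set was chosen from these values, and they are CPM without TMM factors. They held C1q UMIs of 7 to 359 per cell, and Csf1r had a UMI in all 16, but Adgre1 in 1 of 6 and 6 of 10. Csf1r stood at 404 and 311 CPM, against 1216 and 1323 CPM in members with Mrc1. Mmp13, Mmp9, Il10, Ccl2 and Ccl24 gave no UMI in them. They carried genes of dendritic cells and lysozyme genes instead: Ccr7 stood at 938 and 585 CPM, Flt3 at 129 and 137 CPM and Lyz1 at 1900.3 and 1319 CPM, while members with Mrc1 held 73.5 and 75.4 CPM of Ccr7, no Flt3 UMI and 8.48 and 10.3 CPM of Lyz1.

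Among the comparison cells 56 and 54 also held Il22ra2. Plet1, an epithelial and dendritic cell surface gene, stood at 909.9 and 799 CPM in those and at 1051 and 585 CPM in the 16 members; S100a6, a calcium-binding protein, stood at 2337 and 2012 CPM and 4407 and 3342 CPM in the same order. Csf1r stood at 79.5 and 78.7 CPM in comparison cells with Il22ra2, between the 6.85 and 7.72 CPM of those without it and the 404 and 311 CPM of the 16 members. Depth was close as well, with medians of 18870 and 18204 UMIs in comparison cells with Il22ra2. The 16 cells were not alike, so these levels average over different cells. In replicate 1 the cell with 359 C1q UMIs held 30 of the 50 Csf1r UMIs, 180 Apoe UMIs and no Flt3 UMI. In replicate 2 the cells with 200 and 63 C1q UMIs held 358 and 96 Apoe UMIs, and the other 13 cells held 0 to 36. C1qa was the only C1q gene found in 3 of the 6 and 4 of the 10 cells.

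The other 231 members were divided by Mrc1 into 82 and 62 with a UMI (median depth 4116 and 4146.5) and 42 and 45 without (2550.5 and 2139), again after values were seen. Both sets carried the macrophage genes: Csf1r stood at 1216 and 1323 CPM with Mrc1 and 1447 and 1163 CPM without, and Adgre1 at 362 and 394 against 259 and 246 CPM. The monocyte attractant Ccl2 stood at 676 and 442 CPM with Mrc1 and 25.1 and 22.4 CPM without, and Ccl7 at 871 and 346 against 50.2 and 37.3 CPM. Gdf15, a stress-induced cytokine, stood at 882 and 408 against 276 and 119 CPM and Cd163 at 107 and 37.7 against 25.1 and 0 CPM. Ccl24 ran the other way, at 181 and 182 CPM with Mrc1 and 293 and 649 CPM without, and so did Wnt4, at 181 and 326 against 435 and 403 CPM. Of the 87 Ccl24 UMIs without Mrc1 in replicate 2, 48 came from 1 cell.

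**Figure D4:**
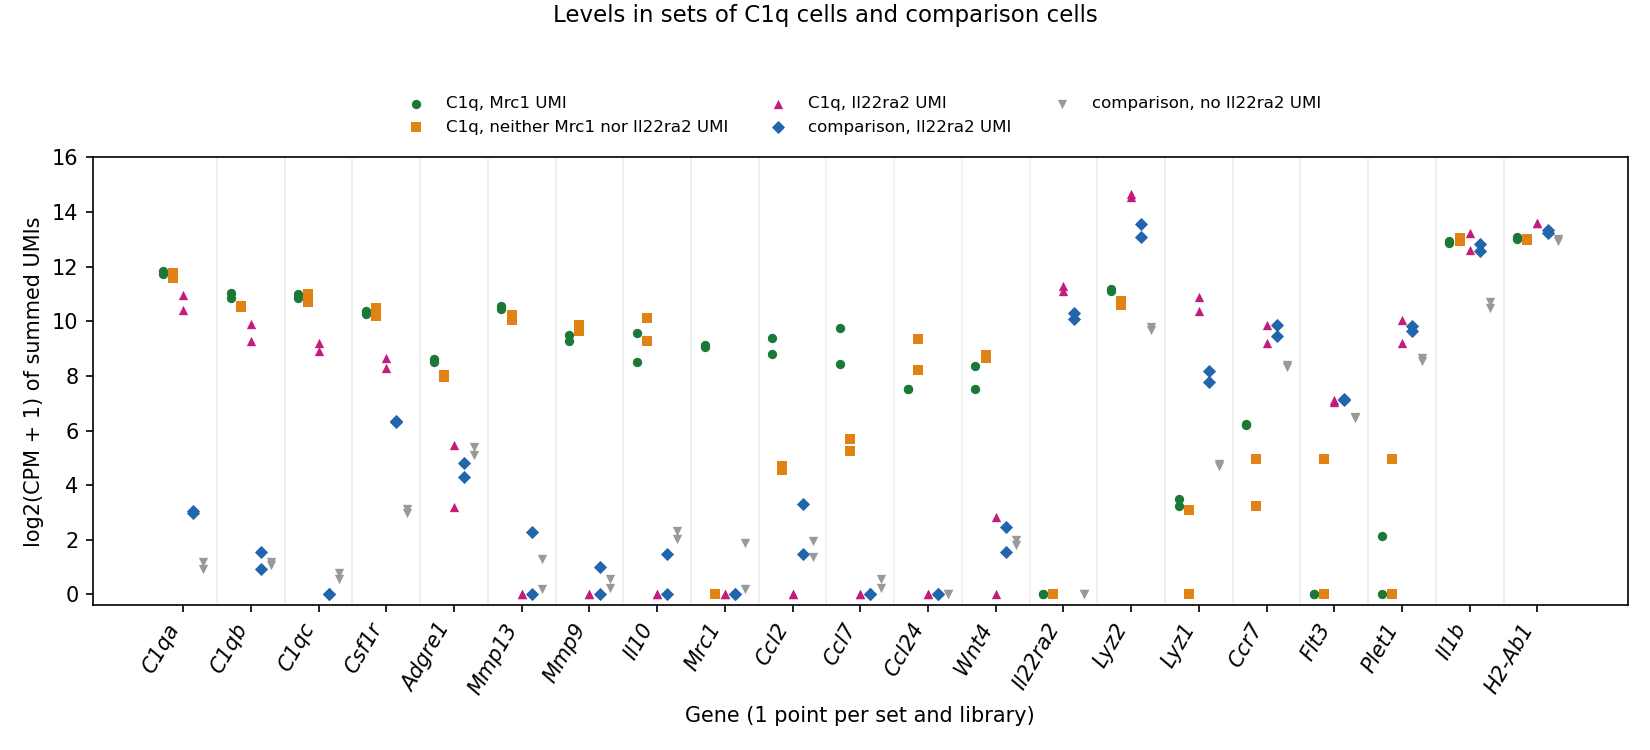
Each point is the log2 of the CPM plus 1 of UMIs summed over 1 set of cells in 1 library, for the genes on the x axis. Members with Il22ra2 (pink) lie with the comparison cells for Mmp13, Mmp9, Il10 and Ccl7 and above them for Csf1r and Lyz2 (the C1q genes chose the sets); members with Mrc1 (green) lead for Ccl2 and Ccl7.

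Members with a Timd4 UMI (22 and 25 cells, median depth 3243 and 2139 UMIs) were compared with those without (108 and 92 cells, 3898.5 and 4022 UMIs) by the same test, leaving out Timd4 and the C1q genes. Of 4165 genes 34 (0.816%) were higher and 158 (3.79%) lower. Only 1 cell with Timd4 held Il22ra2, and without the Il22ra2 cells 1 of 3362 genes (0.0297%) was higher and 23 (0.684%) lower. The genes with the largest falls were Ccr7, Plet1 and Napsa, each with 0 UMIs in cells with Timd4. Ccr7 stood at 0 and 0 CPM with Timd4 against 293 and 249 CPM without it; it did not pass without the Il22ra2 cells, where Plet1 and Napsa failed the filter. The largest rises were Hhip, Esam and 2900052N01Rik; Hhip, an inhibitor of hedgehog signalling, stood at 11.4 and 440.0 CPM with Timd4 against 6.15 and 53.9 CPM without it, and all 33 UMIs with Timd4 in replicate 2 came from 1 cell.

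The falls that passed both with and without the Il22ra2 cells included Ccl2, Plac8 and Vim, named after their values were seen. Ccl2 stood at 11.4 and 53.3 CPM with Timd4 against 494 and 266 CPM without it (log2 difference -3.60, adjusted p = 0.00191; -3.93 without the Il22ra2 cells). Plac8, a monocyte gene, stood at 22.8 and 26.7 CPM with Timd4 against 742 and 909 CPM without it (log2 difference -5.03, adjusted p = 2.66e-05; -3.24 without the Il22ra2 cells). The filament gene Vim stood at 45.7 and 40.0 CPM with Timd4 against 412 and 529 CPM without it (log2 difference -3.42, adjusted p = 0.00074; -2.86 without the Il22ra2 cells). For all 3 the cells with Timd4 were lower in both libraries. Their levels there rest on few UMIs: in cells with Timd4, 11.4 CPM was 1 UMI in replicate 1 and 53.3 CPM was 4 UMIs in replicate 2. The 23 genes lower without the Il22ra2 cells also included the fibroblast gene Dcn (log2 difference -2.98) and ribosomal genes such as Rps24 (-1.19). The part of cells with fibroblast transcripts in these falls was not tested. Members with Ccr2 (12 and 7 cells) or Lyve1 (3 and 1 cells) were too few for a test.

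The same genes were then read in the 8 bulk libraries, which the rule did not use and which held 8549348 to 55382442 counts. In bulk samples fewer macrophages and less RNA per macrophage cannot be told apart. C1qb stood at 915 and 545 CPM in CD31+LYVE1- cells, 2629 and 3282 CPM in CD31+LYVE1+ cells, 116 and 46.9 CPM in GFP-low cells and 6.84 and 3.58 CPM in GFP-high cells. The order of the groups was the same for C1qa and C1qc, and none of the groups overlapped. Endothelial sorts thus held C1q transcripts well above the stromal ones; this order across the separate mice and sorts was not tested.

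In CD31+LYVE1+ against CD31+LYVE1- cells, C1qb (log2 difference 2.1, adjusted p = 0.0254) and C1qc (log2 difference 1.96, adjusted p = 0.0247) were higher by edgeR's quasi-likelihood test fitted over all 8 libraries, and C1qa did not pass (1190.3 and 1574 against 500.2 and 416 CPM; log2 difference 1.68, adjusted p = 0.0522). Lyve1, the gene of the sorted protein, stood at 1785 and 3297 against 6.72 and 45.3 CPM and checks the sort. Of the 30 macrophage identity and resident macrophage genes 20 were higher and 1, Mertk, was lower (median 2.08, over all genes -0.12), where 8.32% of 14893 genes were higher and 14.7% lower; 19 of 29 were higher without Lyve1. Among the 4 listed genes with the highest level Lyz2 stood at 6393 and 8495 against 1507 and 1083 CPM (log2 difference 2.61, adjusted p = 0.00456), Cd14, a receptor for bacterial lipopolysaccharide, at 1193 and 1356 against 212 and 143 CPM (log2 difference 2.93, adjusted p = 0.0114) and the immunoglobulin receptor Fcgr3 at 568 and 779 against 165 and 104 CPM (log2 difference 2.41, adjusted p = 0.0116). The count fell from 21 called to 5 without CD31+LYVE1+ replicate 2 and to 10 without CD31+LYVE1- replicate 2. Neither C1qb nor C1qc passed without CD31+LYVE1- replicate 2 or without either CD31+LYVE1+ replicate, and C1qc did not pass without CD31+LYVE1- replicate 1 either.

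Folr2 and Cd209f, which were at the detection limit in the single cells, were called higher there. Folr2 stood at 16.2 and 26 against 1.16 and 0.213 CPM (log2 difference 4.96, adjusted p = 0.00677) and the lectin Cd209f at 15.7 and 47.7 against 1.37 and 2 CPM (log2 difference 4.32, adjusted p = 0.00367). Cd163 stood at 20.3 and 65 against 3.16 and 2.9 CPM (log2 difference 3.89, adjusted p = 0.00392). Timd4 (23.6 and 47 against 21.4 and 43.2 CPM) and Cd4 (27.1 and 39.4 against 33.1 and 127 CPM) were the 2 of the 14 resident genes that did not pass. Folr2, Cd209f, Timd4 and Cd4 were singled out after their values were seen. Dendritic cell genes were called in 3 of 15 (2 higher, 1 lower), and in 0 to 1 with any 1 of the 4 libraries left out; Cd209a stood at 54.5 and 70.8 against 26.1 and 19.3 CPM (log2 difference 1.55, adjusted p = 0.0335), while Cd24a (306 and 271 against 277 and 301 CPM) and Ccr7 (110.3 and 40.7 against 22.2 and 17.6 CPM) did not pass. The plasma cell gene Jchain stood at 155403 and 62089 CPM in the CD31+LYVE1+ libraries against 4588 and 4737 CPM, and the endothelial gene Pecam1, which encodes CD31, at 115 and 191 against 800.2 and 925 CPM; their part in these differences was not tested.

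In GFP-low against GFP-high cells C1qa (log2 difference 4.10, adjusted p = 0.00217), C1qb (log2 difference 3.96, adjusted p = 0.00248) and C1qc (log2 difference 3.74, adjusted p = 0.00221) were all higher; C1qa stood at 78.6 and 30.1 against 4.44 and 1.91 CPM. Of the 30 macrophage genes 21 were higher and 0 lower (median 3.25, over all genes 0.03), beside 12.1% higher and 2.77% lower over all genes; 12 were called without GFP-high replicate 2. Dendritic cell genes were higher in 9 of 15 and lower in 0 (median 3.05), or 4 without GFP-high replicate 2, so in this sort the macrophage genes did not move alone. Fcgr3 stood at 29.1 and 17.9 against 2.48 and 0.803 CPM and Ccr7 at 10.4 and 45.6 against 1.09 and 0.494 CPM (log2 difference 5.15, adjusted p = 0.0037). Jchain (1787 and 1867 against 214 and 128 CPM) and Pecam1 (306 and 96 against 8.37 and 3.46 CPM) were also higher, and their part was not tested.

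**Figure D5:**
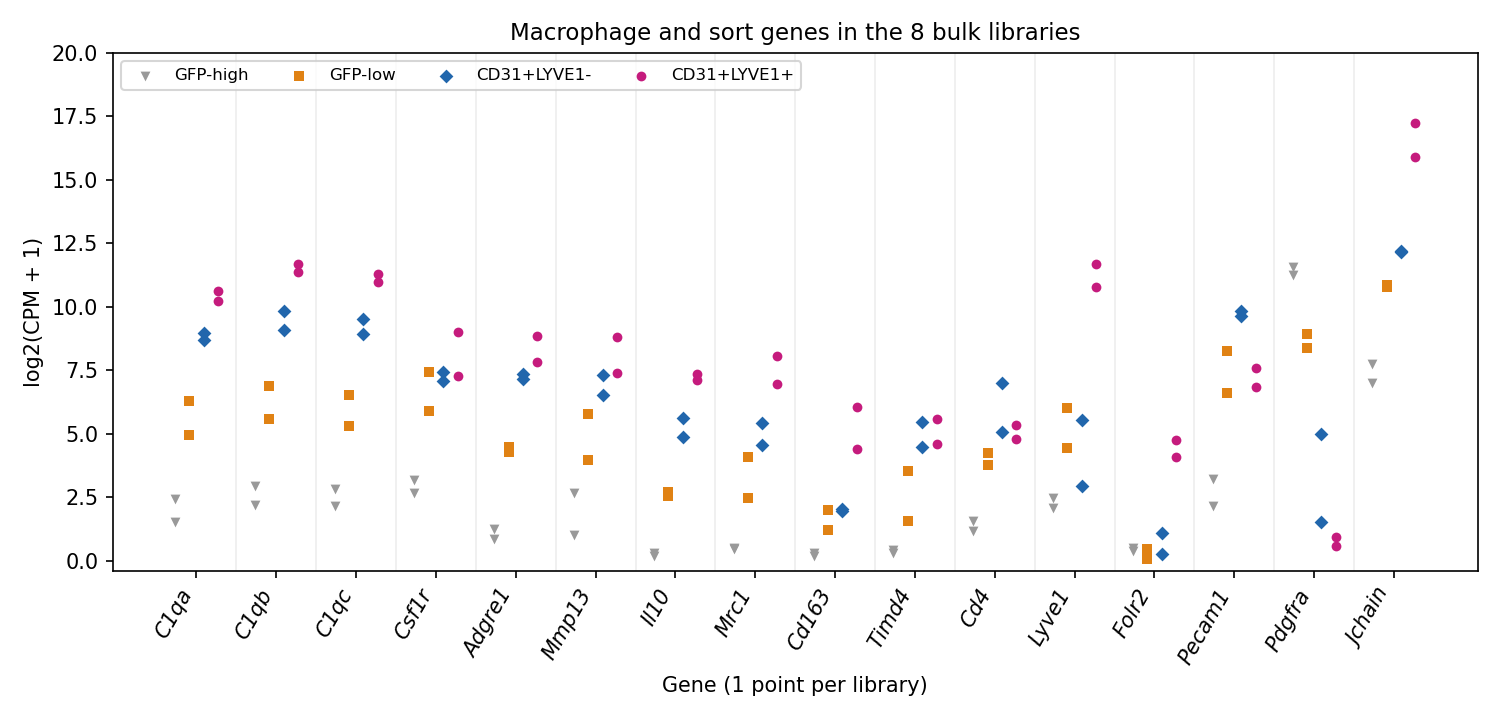
Each point is the log2 of the CPM plus 1 of 1 bulk library, for macrophage genes, the sort genes Lyve1, Pecam1 and Pdgfra and the plasma cell gene Jchain. CD31+LYVE1+ libraries are highest for C1qa, C1qb and C1qc, with C1qb at 2629 and 3282 CPM, and GFP-high libraries lowest.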

How the data were processed

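UMI counts were deposited as filtered matrices, made with Cell Ranger 3.0.2 for whole mesenchyme and 2.1.1 for the sorted library on mm10, per the submitters' processing notes. Bulk counts were deposited by the authors as whole numbers per gene; STAR is named in those notes, while for counter, annotation and strand no entry was given in the sources used here. The kept whole-mesenchyme cells held 54201520 and 53570429 UMIs.

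Cells were kept by the rule in the report in Python 3.11.15 (scanpy 1.11.5). Sums per library and set were tested with edgeR 4.0.16 (R 4.3.3; filterByExpr, TMM, quasi-likelihood test, library block, Benjamini-Hochberg), and bulk counts with all 4 groups in 1 fit and no block. DESeq2 1.42.0, other filters, thresholds and left-out libraries were alternatives. Scrublet's lower automatic threshold (0.284) was used for both libraries and marked 84 (1.35%) and 97 (1.61%) cells; doublets were left in. Entries with date-like gene names (26) were left out of the bulk table. The scripts' tests were checked on simulated data.

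The members, lists and tests were chosen with earlier results of these data known. Named genes are the 8 largest rises and 6 largest falls with 100 or more CPM in each library, the 2 called genes of each list with the highest CPM, a fixed set of subset genes, in bulk C1qa, C1qb, C1qc, Lyve1, and the 4 macrophage and 3 dendritic cell genes with the highest CPM in CD31+LYVE1+ libraries, and in divisions the 3 largest changes each way. Some genes that these rules name are not reported here. Other names were chosen after their values were seen.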

Additional observations from a re-analysis of the deposited data

Results flagged for a closer look

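In the library sorted for PDGFRA-driven GFP, which entered no comparison, 4 of 3890 cells met the rule for C1q macrophages (0.103%, exact 95% interval 0.0280 to 0.263). These cells held 6 to 11 C1q UMIs each. They were set aside for a closer look because the signal lies in data outside the comparisons and above the limit that a count of 0 allows. In the whole-mesenchyme libraries the shares were 2.09% and 1.94%.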

How the results depend on the processing

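With 2 libraries, calls rest on the spread pooled over genes, and shares of cells with a UMI move with depth. Of the alternatives to the comparison of C1q macrophages with comparison cells, DESeq2 called 1124 genes higher and 717 lower, thinning to 1500 UMIs 1202 and 1078, and a mitochondrial limit of 5% gave 1285 lower. That limit left 129 C1q macrophages in place of 247. The Timd4 division called 192 genes, and 314 with no filter on low counts, 85 by DESeq2, 76 after thinning and 24 without Il22ra2 cells. The log2 difference of Igkc reversed to 0.86 with comparison cells without Cd3 and Cd79a UMIs, and that of Lyz2 to -0.30 without Il22ra2 cells. Both alternatives were chosen after seeing the data. The macrophage genes called in CD31+LYVE1+ against CD31+LYVE1- cells ranged from 5 to 17 with 1 library left out, and the dendritic cell genes from 0 to 1; the latter were 6 by DESeq2 and 6 with no filter. In GFP-low against GFP-high cells these ranges were 12 to 22 and 4 to 8. Some folds moved by over 1.5 times with 1 single-cell library left out. As log2 differences, Mmp9 ranged from 9.61 to 11.25, Ccl7 from 8.46 to 11.09, Mrc1 from 7.05 to 10.25 and Ly6d from -5.91 to -3.07. Beyond the alternatives that changed cells or samples by construction, the cause was not tested.

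Bulk replicates share only a number: deviations of same-numbered libraries correlated at 0.195 and 0.0977 over genes. With the replicate block 20 macrophage and 2 dendritic cell genes were called in the first bulk comparison and 21 and 9 in the second. Without the library block, the single-cell comparison gave 2062 higher and 1804 lower (no replicate block).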

Other observations

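In the 16 members with Il22ra2, which carried dendritic cell genes, further genes stood apart from the members with Mrc1. Levels are given in replicates 1 and 2, and the type of these 16 cells was not tested. Itgae, the integrin chain CD103 of dendritic cells and T cells at epithelia, stood at 259 and 243 CPM against 0 and 0 CPM, and at 250.3 and 234 CPM in comparison cells with Il22ra2. Napsa, an aspartic protease, stood at 736 and 685 CPM against 5.65 and 0 CPM. Il23a, a subunit of interleukin 23, stood at 267 and 224 CPM against 25.4 and 34.3 CPM, and at 157 and 137 CPM in comparison cells with Il22ra2.

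The number of C1q macrophages followed the thresholds: 276 with 4 or more C1q UMIs, 212 with 10 or more, 264 with 200 or more genes per cell, and 283 when Cd3 and Cd79a UMIs were allowed.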
